A study of Mus musculus with 21 samples.

Results

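The genes of lactate and pyruvate handling described here are 10 genes chosen by name: the lactate dehydrogenase genes Ldha and Ldhb, the monocarboxylate transporter genes Slc16a1 and Slc16a3, the gene Bsg for the transporters' partner protein, the mitochondrial pyruvate carrier genes Mpc1 and Mpc2, and the pyruvate dehydrogenase kinase genes Pdk1, Pdk2 and Pdk3. Each name stood once in each of 2 expression tables, so all 10 were found, of 21161 gene names in a table of cell states and of 55291 in a table of lactate doses. All 10 also passed the filter for testing, which asked for at least 1 FPKM (sequenced fragments scaled to transcript length and to the mapped total) in at least 3 libraries of a table.

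Lactate dehydrogenase is a tetramer of A and B subunits that turns pyruvate into lactate and back, and Ldha and Ldhb encode these subunits. Lactate and pyruvate cross the plasma membrane with a proton through MCT1, encoded by Slc16a1, and MCT4, encoded by Slc16a3, and both transporters need basigin, the product of Bsg, to reach the membrane. Pyruvate enters mitochondria through a carrier built from MPC1 and MPC2, and the pyruvate dehydrogenase complex then turns it into acetyl-CoA unless a pyruvate dehydrogenase kinase phosphorylates and stops the complex. Ldha, Slc16a3 and Pdk1 are known targets of the hypoxia-inducible factor HIF-1.

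RNA of mouse cells was sequenced in 21 libraries, 3 in each of 7 groups, and all carry the cell line label OG2, a name known from mice with a green fluorescent reporter under Pou5f1 control. The cell-state table holds 2CLCs (2-cell-like cells, which express early-embryo transcripts), epiblast stem cells (EpiSCs, a primed pluripotent state), mouse embryonic fibroblasts (MEFs) and embryonic stem cells (ESCs), all with the treatment label WT. The lactate table holds ESCs with 0 mM, 60 mM or 80 mM sodium lactate, of which the 0 mM samples also carry the treatment label WT. The labels state neither the length of lactate exposure, nor how 2CLCs were obtained, nor whether replicates came from separate cultures, so a p-value here measures the spread among libraries, which may be technical.

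Marker genes went with the labels. The summed FPKM of 7 2CLC markers, such as Zscan4c, ranged from 10805 to 11971 in 2CLCs, reached at most 0.103 in EpiSCs and MEFs, and ranged from 4.35 to 4.60 in ESCs. The sum of 6 EpiSC markers, of which 5 were in the table, was 465 to 616 in EpiSCs, at most 32.9 in 2CLCs and MEFs, and 29.0 to 30.4 in ESCs. The sum of 8 MEF markers, such as Col1a2, was 981 to 992 in MEFs and at most 13.1 in the other states, with Twist2, Postn and Dcn at 0 in ESCs. The sum of 7 naive ESC markers was 905 to 1006 in 2CLCs, at most 37.3 in EpiSCs and MEFs, and 1564 to 1575 in ESCs. The 2CLC sum rests mostly on Dppa5a, whose mean was 703 FPKM there, above the 513 FPKM of ESCs. Against ESCs, the test described below called 6 of these 7 markers lower in 2CLCs and 1 higher. Esrrb, for example, fell from a mean of 285 FPKM to 43.5 FPKM, so the sum understates the fall of most naive markers. EpiSC replicate 1 stood apart from the other EpiSC libraries (Pearson r across genes of 0.9733 and 0.9726 with them, against 0.9955 between them, where genes are not independent replicates), and the members' changes and the list counts in EpiSCs are given with and without it. Read numbers are unknown. The libraries summed to 375926 to 519915 FPKM over the cell states and to 396792 to 409131 FPKM over the lactate doses, and 12266 to 13124 genes reached 1 FPKM.

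Start regions of 9 of the 10 genes were taken from RefSeq (GRCm38.p6), as 13 windows of 250 bases before to 50 after a start site, and none was in the table for Bsg. The windows were searched on both strands for ACGTG and GCGTG, the core letters of sites bound by hypoxia-inducible factors, where a CACGTG holds a match on each strand. At least 1 match lay in 10 of the 13 windows, and 43.8% of all 32851 windows of this length held one. The 13 windows had a median GC content of 66.0% (40.3 to 73.7%) and all windows 52.7%, both motifs are GC-rich, and the part of base composition in this count was not tested. The windows of Ldha (chr7:46845554-46845853, the more upstream of its windows), Slc16a3 (chr11:120948817-120949116) and Pdk1 (chr2:71872974-71873273, the more upstream) are shown because these are the members named above as HIF-1 targets, and that of Slc16a1 (chr3:104638414-104638713) as the partner of Slc16a3. All are on the plus strand, printed 5′ to 3′, and capitals mark the matches, whole CACGTG where it occurs.
Ldha: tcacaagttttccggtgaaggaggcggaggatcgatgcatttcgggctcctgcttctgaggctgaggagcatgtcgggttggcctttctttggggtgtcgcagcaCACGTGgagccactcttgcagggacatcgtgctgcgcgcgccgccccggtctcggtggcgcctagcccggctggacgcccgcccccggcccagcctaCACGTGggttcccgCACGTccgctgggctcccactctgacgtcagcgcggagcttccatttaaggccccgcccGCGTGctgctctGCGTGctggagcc
Slc16a3: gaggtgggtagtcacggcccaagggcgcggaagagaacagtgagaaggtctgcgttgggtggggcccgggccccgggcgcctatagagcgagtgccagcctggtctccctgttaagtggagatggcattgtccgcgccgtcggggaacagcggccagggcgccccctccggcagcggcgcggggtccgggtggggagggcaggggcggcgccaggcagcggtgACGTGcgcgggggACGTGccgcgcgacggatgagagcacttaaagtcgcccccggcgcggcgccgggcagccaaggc
Pdk1: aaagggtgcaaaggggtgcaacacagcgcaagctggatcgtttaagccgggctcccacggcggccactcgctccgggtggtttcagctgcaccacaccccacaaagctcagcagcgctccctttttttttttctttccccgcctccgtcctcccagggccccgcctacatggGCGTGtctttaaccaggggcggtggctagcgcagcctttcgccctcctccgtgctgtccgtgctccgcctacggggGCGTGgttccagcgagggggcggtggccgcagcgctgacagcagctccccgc
Slc16a1: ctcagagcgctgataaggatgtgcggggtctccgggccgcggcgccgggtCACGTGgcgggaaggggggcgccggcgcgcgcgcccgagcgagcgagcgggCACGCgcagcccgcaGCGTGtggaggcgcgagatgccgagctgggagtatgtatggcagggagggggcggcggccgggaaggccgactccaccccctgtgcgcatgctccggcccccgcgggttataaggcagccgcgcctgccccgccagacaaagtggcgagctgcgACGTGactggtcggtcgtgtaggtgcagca
The Ldha window held 7 matches, which include both strands of 2 CACGTG, and the matches began 145 bases before to 38 bases after the start site. The Slc16a3 window held 2, the Pdk1 window 2 and the Slc16a1 window 5. A match is a run of letters and not a measured binding site.

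In 2CLCs most of the 10 genes were lower than in ESCs. The test (limma on log2(FPKM + 1), with Benjamini-Hochberg adjustment over all 16358 genes tested and a threshold of 0.05) called 7 members lower and 1 higher, against 56.4% of all tested genes lower and 20.1% higher. The members' median log2 fold change was -0.86, and that of all tested genes was -0.46. With median-of-ratios scaling the median of all genes moved to 0.02 and the split of all called genes to 6018 higher and 5300 lower, against 3296 higher and 9220 lower with FPKM as deposited, and the members became 2 higher and 6 lower. Changes in 2CLCs are therefore also given relative to the median of all genes. In bulk RNA, fewer cells of a type and less RNA per cell cannot be told apart.

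In EpiSCs the test called 5 members higher and 2 lower, against 33.2% of all tested genes higher and 26.5% lower, with a median of 0.63 over the members and 0.01 over all genes. Without EpiSC replicate 1 these were 7 higher and 2 lower, against 35.6% of all tested genes higher and 31.3% lower. In MEFs 4 members were higher and 2 lower, against 34.4% of all tested genes higher and 40.9% lower, with a median of 0.16 over the members and -0.07 over all genes. The 3 comparisons share the ESC libraries.

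**Figure D1:**
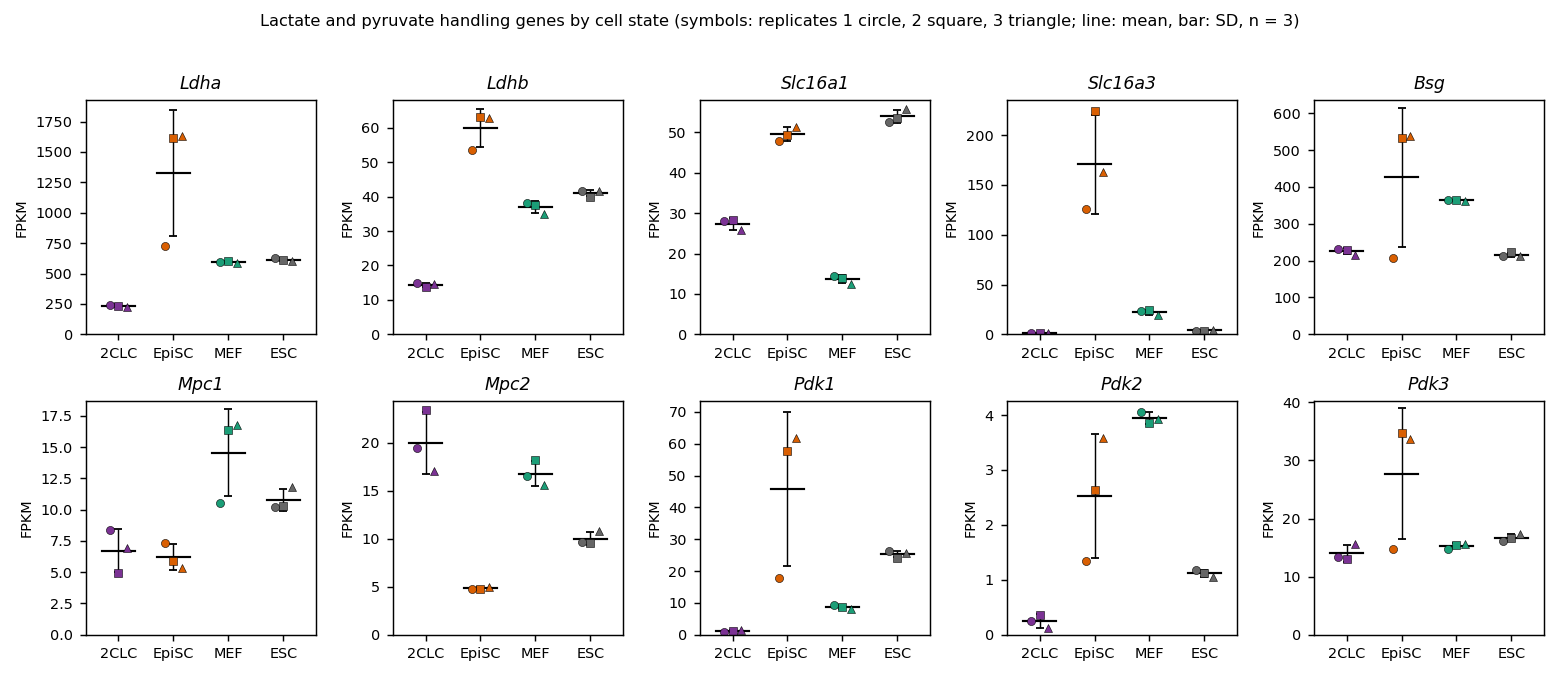
FPKM of each of the 10 genes (vertical axes, linear and from 0) in the 3 libraries of 2CLCs, EpiSCs, MEFs and ESCs, with the mean as a line and the SD as a bar. Slc16a3 stood at 125 to 224 FPKM in EpiSCs and at 3.69 to 4.17 FPKM in ESCs, and EpiSC replicate 1 (circle) lay below the other EpiSC libraries for Ldha, Bsg, Pdk1, Pdk2 and Pdk3.

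Ldha, on chromosome 7 at 46841475 to 46855627 (plus strand; here and below GENCODE M21 on GRCm38), had 245, 235 and 222 FPKM in 2CLCs, 725, 1617 and 1631 FPKM in EpiSCs, 592, 606 and 584 FPKM in MEFs, and 625, 615 and 604 FPKM in ESCs. All 2CLC libraries lay below and all EpiSC libraries above the ESC libraries, while MEFs and ESCs overlapped. Ldha fell in 2CLCs, where the log2 fold change was -1.39 ± 0.24 (SE, adjusted p = 0.000276), or -0.93 relative to the median of all genes. It rose in EpiSCs, at a log2 fold change of 1.01 ± 0.24 (adjusted p = 0.00378) and was not called in MEFs (-0.05 ± 0.24, adjusted p = 0.892). The fit of all states gives each gene 1 error, so the wide EpiSC spread enters the SE of the 2CLC and MEF comparisons too. For Ldha the SD was 519 FPKM in EpiSCs, 10.9 in MEFs and 10.3 in ESCs. Pdk1, below, likewise had an SD of 24.3 FPKM in EpiSCs, 0.659 in MEFs and 0.971 in ESCs.

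Ldhb, on chromosome 6 at 142490249 to 142507957 (minus strand), had 14.9, 13.8 and 14.5 FPKM in 2CLCs, 53.4, 63.2 and 63.0 FPKM in EpiSCs, 38.3, 37.5 and 34.9 FPKM in MEFs, and 41.7, 40.0 and 41.5 FPKM in ESCs. Its order over the states was that of Ldha, and no neighbouring groups overlapped. Ldhb fell in 2CLCs (log2 fold change -1.45 ± 0.07, adjusted p = 5.09e-09, or -0.99 relative to the median of all genes) and rose in EpiSCs (0.53 ± 0.07, adjusted p = 5.3e-05). In MEFs its libraries lay below those of ESCs, but the difference of -0.15 ± 0.07 was not called (adjusted p = 0.0686). It was called lower in a fit of MEFs and ESCs alone (adjusted p = 0.00873) and without EpiSC replicate 1 (adjusted p = 0.0072). Its sign turned with median-of-ratios scaling (0.0437) and quantile normalization (0.0464), where it was not called. Of 50-base words in the annotated transcripts, 9.26% for Ldha and 21.0% for Ldhb also occur in other genes, chiefly pseudogenes such as Ldha-ps2 and Gm5514, so the counting of fragments between copies is uncertain.

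The balance of the dehydrogenase genes differed from that in ESCs by at most 1.49 percentage points. Ldha made up 94.2% ± 0.291 of the summed FPKM of Ldha and Ldhb in 2CLCs, 95.2% ± 1.81 in EpiSCs, 94.1% ± 0.216 in MEFs and 93.7% ± 0.156 in ESCs (SD, n = 3 each). Within each library the A subunit gene was therefore the main one in every state. The shares of 2CLCs and EpiSCs overlapped those of ESCs, with exact two-sided permutation p of 0.2 and 0.4, and those of MEFs did not, with p = 0.1, the smallest that 3 against 3 libraries can give.

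Slc16a1 and Slc16a3 showed different orders over the states. Slc16a1, on chromosome 3 at 104638668 to 104658462 (plus strand), had 28.0, 28.3 and 25.7 FPKM in 2CLCs, 48.0, 49.3 and 51.4 FPKM in EpiSCs, 14.4, 14.0 and 12.5 FPKM in MEFs, and 52.5, 53.5 and 55.8 FPKM in ESCs. It was highest in ESCs and lowest in MEFs, and no neighbouring groups overlapped. The log2 fold change was -1.91 ± 0.06 in MEFs (adjusted p = 1.75e-10) and -0.96 ± 0.06 in 2CLCs (adjusted p = 8.7e-08), which is -0.50 relative to the median of all genes. In EpiSCs it was -0.12 ± 0.06 and not called (adjusted p = 0.129), but called with median-of-ratios scaling (-0.23, adjusted p = 0.0102).

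Slc16a3, on chromosome 11 at 120948480 to 120960868 (plus strand), had 1.13, 1.08 and 0.850 FPKM in 2CLCs, 125, 224 and 163 FPKM in EpiSCs, 23.3, 23.9 and 18.9 FPKM in MEFs, and 3.69, 3.76 and 4.17 FPKM in ESCs. The 4 states did not overlap, and the EpiSC mean was 167-fold that of 2CLCs, 7.74-fold that of MEFs and 44.1-fold that of ESCs. Leaving out EpiSC replicate 1 made these 189.5-fold, 8.77-fold and 49.9-fold. Slc16a3 rose in EpiSCs by a log2 fold change of 5.10 ± 0.17 (adjusted p = 8.71e-10) and in MEFs with 2.24 ± 0.17 (adjusted p = 2.71e-07), and the EpiSC change stood at the 99.96th percentile of all tested genes. It fell in 2CLCs, by 1.27 ± 0.17 on the log2 scale (adjusted p = 3.77e-05) and by 0.81 relative to the median of all genes, a size that the added 1 FPKM understates at this low level.

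The MCT4 gene thus held unlike shares of the summed FPKM of both transporter genes. The share was 3.87%, 3.68% and 3.20% in 2CLCs, 72.3%, 82.0% and 76.0% in EpiSCs, 61.7%, 63.1% and 60.3% in MEFs, and 6.56%, 6.57% and 6.96% in ESCs. The shares of all 3 states lay apart from those of ESCs (exact two-sided permutation p = 0.1 for each, the smallest possible, and 0.15 after Benjamini-Hochberg adjustment over 30 comparisons of shares). In EpiSCs both transporter genes were well expressed, whereas the larger share in MEFs went with a low Slc16a1.

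Bsg, on chromosome 10 at 79704491 to 79711969 (plus strand), had 232, 228 and 216 FPKM in 2CLCs, 208, 533 and 537 FPKM in EpiSCs, 365, 364 and 362 FPKM in MEFs, and 212, 223 and 213 FPKM in ESCs. EpiSC replicate 1 lay below all ESC libraries and the other EpiSC libraries far above them, the MEF libraries lay close together above ESCs, and 2CLCs overlapped ESCs. Bsg was called higher in EpiSCs (log2 fold change 0.85 ± 0.28, adjusted p = 0.0217), but not without EpiSC replicate 2 (0.63, adjusted p = 0.0907), EpiSC replicate 3 (0.62, adjusted p = 0.0912), ESC replicate 1 (0.84, adjusted p = 0.0552) or ESC replicate 3 (0.84, adjusted p = 0.0545), nor in a fit of EpiSCs and ESCs alone (adjusted p = 0.0838). In MEFs Bsg was called higher (0.75 ± 0.28, adjusted p = 0.0305), and without any single MEF or ESC library the value stayed at 0.74 to 0.77 while the adjusted p was 0.0586 to 0.0693. In this fit of all states the wide EpiSC spread enters the error of every comparison for Bsg, and the adjusted p in MEFs was 3.85e-09 without EpiSC replicate 1 and 5.57e-08 in a fit of MEFs and ESCs alone. In 2CLCs Bsg was not called at 0.06 ± 0.28 (adjusted p = 0.868, or 0.52 relative to the median of all genes), but median-of-ratios scaling made it higher (0.83, adjusted p = 0.0218) and quantile normalization turned its sign (-0.28, adjusted p = 0.266). Emb, which encodes embigin, another partner of monocarboxylate transporters, differed from Bsg in its order: it averaged 8.40 ± 0.603 FPKM in 2CLCs, 101 ± 6.99 in EpiSCs, 13.2 ± 0.643 in MEFs and 28.2 ± 0.75 in ESCs (SD, n = 3), called lower in 2CLCs and MEFs and higher in EpiSCs.

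The carrier genes Mpc1 and Mpc2 were called in opposite directions in 2CLCs and both lower in EpiSCs with FPKM as deposited, although the direction of Mpc1 in 2CLCs turned with median-of-ratios scaling. Mpc1, on chromosome 17 at 8282904 to 8297661 (plus strand), had 8.33, 4.93 and 6.93 FPKM in 2CLCs, 7.36, 5.88 and 5.33 FPKM in EpiSCs, 10.5, 16.4 and 16.7 FPKM in MEFs, and 10.2, 10.3 and 11.8 FPKM in ESCs. Its 2CLC and EpiSC libraries lay below the ESC libraries, and MEFs overlapped ESCs. Mpc1 was called lower in 2CLCs (log2 fold change -0.63 ± 0.20, adjusted p = 0.0125, or -0.17 relative to the median of all genes) and in EpiSCs (-0.72 ± 0.20, adjusted p = 0.0082). The 2CLC call was lost without 2CLC replicate 2 (-0.45, adjusted p = 0.0582) and with quantile normalization (-0.16, adjusted p = 0.498), and its direction turned with median-of-ratios scaling (0.06, adjusted p = 0.82). In MEFs Mpc1 was not called (0.38 ± 0.20, adjusted p = 0.103), but it was called higher without MEF replicate 1 (0.58, adjusted p = 0.0142) and under median-of-ratios scaling (0.56, adjusted p = 0.0248). Of its 50-base words 26.3% occur in other genes, including the overlapping opposite-strand gene 4930506C21Rik and Mpc1-ps, and whether counting used the strand is not stated in the labels or notes.

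Mpc2, on chromosome 1 at 165460637 to 165481214 (plus strand), had 19.4, 23.4 and 17.0 FPKM in 2CLCs, 4.76, 4.75 and 4.99 FPKM in EpiSCs, 16.5, 18.2 and 15.6 FPKM in MEFs, and 9.68, 9.53 and 10.8 FPKM in ESCs. It was the member called higher in 2CLCs with FPKM as deposited, at a log2 fold change of 0.92 ± 0.10 (adjusted p = 8.11e-06), or 1.38 relative to the median of all genes. It rose in MEFs (0.69 ± 0.10, adjusted p = 8.6e-05) and fell in EpiSCs (-0.91 ± 0.10, adjusted p = 1.73e-05), with no overlap with ESCs in any state. Mpc1 made up 25.4% ± 6.99 of the summed FPKM of both carrier genes in 2CLCs, 55.9% ± 4.58 in EpiSCs, 46.0% ± 6.52 in MEFs and 51.8% ± 0.508 in ESCs (SD, n = 3 each). The share in 2CLCs lay below that in ESCs in 3 of 3 libraries (exact two-sided permutation p = 0.1, 0.15 after adjustment), and the shares in EpiSCs and MEFs overlapped those in ESCs. This share was added after the values were seen.

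Pdk1 was the kinase gene with the widest range. It lies on chromosome 2 at 71873224 to 71903858 (plus strand) and had 0.926, 1.22 and 1.38 FPKM in 2CLCs, 17.9, 57.6 and 61.9 FPKM in EpiSCs, 9.37, 8.79 and 8.06 FPKM in MEFs, and 26.2, 24.3 and 25.6 FPKM in ESCs. The 2CLC mean was 21.6-fold below that of ESCs and 39.0-fold below that of EpiSCs, or 50.8-fold without EpiSC replicate 1. Pdk1 fell by 3.60 ± 0.35 on the log2 scale in 2CLCs (adjusted p = 2.44e-06), or -3.14 relative to the median of all genes, and that change stood at the 0.11th percentile of all tested genes. It fell in MEFs by 1.44 ± 0.35 (adjusted p = 0.00318). In EpiSCs replicate 1 lay below and the other replicates above the ESC libraries, and the difference of 0.64 ± 0.35 was not called (adjusted p = 0.144); without that library it was 1.21 (adjusted p = 6.74e-07).

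Pdk2, a kinase gene expressed in many tissues, lies on chromosome 11 at 95026258 to 95041354 (minus strand). It had 0.257, 0.368 and 0.126 FPKM in 2CLCs, 1.34, 2.63 and 3.59 FPKM in EpiSCs, 4.06, 3.85 and 3.92 FPKM in MEFs, and 1.18, 1.12 and 1.06 FPKM in ESCs. The states did not overlap, and MEFs were highest. Pdk2 was called lower in 2CLCs (-0.76 ± 0.19, adjusted p = 0.00339, or -0.31 relative to the median of all genes) and higher in EpiSCs (0.68 ± 0.19, adjusted p = 0.0095) and MEFs (1.22 ± 0.19, adjusted p = 0.000113). These levels are near the filter, the added 1 FPKM understates the changes, and the antisense gene Gm11513 overlaps Pdk2.

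Pdk3, on chromosome X at 93764607 to 93832201 (minus strand), had 13.4, 13.0 and 15.7 FPKM in 2CLCs, 14.8, 34.7 and 33.7 FPKM in EpiSCs, 14.8, 15.5 and 15.7 FPKM in MEFs, and 16.1, 16.6 and 17.3 FPKM in ESCs. It varied least of the kinase genes and was called in none of the 3 states, at log2 fold changes of -0.24 ± 0.25 in 2CLCs (adjusted p = 0.402, or 0.22 relative to the median of all genes), 0.61 ± 0.25 in EpiSCs (adjusted p = 0.0531) and -0.11 ± 0.25 in MEFs (adjusted p = 0.715). Without EpiSC replicate 1 the difference was called in EpiSCs (0.99, adjusted p = 4.3e-07) and in 2CLCs (-0.24, adjusted p = 0.00486). A fit of the compared groups alone called it lower in 2CLCs (adjusted p = 0.0196) and MEFs (adjusted p = 0.0331), a filter of 5 FPKM (adjusted p = 0.0498) called it higher in EpiSCs, and median-of-ratios scaling gave positive values in 2CLCs (0.49) and MEFs (0.07).

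Within the summed FPKM of the 3 kinase genes, Pdk1 held 7.59% ± 1.08 in 2CLCs, 58.6% ± 5.23 in EpiSCs, 31.2% ± 2.02 in MEFs and 58.7% ± 1.28 in ESCs (SD, n = 3 each). Pdk3 thus made up most of the kinase FPKM in 2CLCs. Pdk2 held 14.1% ± 0.349 in MEFs and 2.59% ± 0.162 in ESCs. The Pdk1 shares of 2CLCs and MEFs lay apart from those of ESCs (exact two-sided permutation p = 0.1 each, 0.15 after adjustment), and those of EpiSCs overlapped them. Pdk4, a kinase gene induced by fasting in other tissues, was not among the 10 and averaged 0.451 ± 0.155 FPKM in 2CLCs, 0.00659 ± 0.0114 in EpiSCs, 7.14 ± 1.04 in MEFs and 0.242 ± 0.052 in ESCs, so that in MEFs it stood at a level like that of Pdk1.

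**Figure D2:**
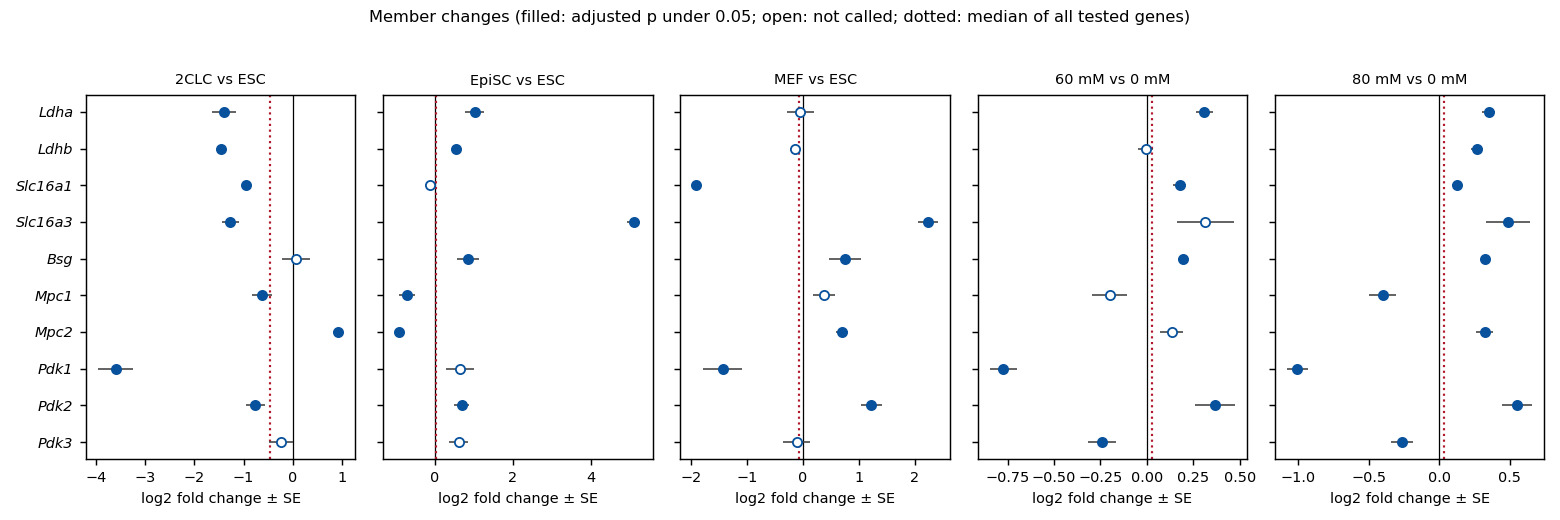
Log2 fold change on the log2(FPKM + 1) scale with its SE for each of the 10 genes, in 2CLCs, EpiSCs and MEFs against ESCs and at 60 mM and 80 mM against 0 mM, with filled points for called genes and a dotted line at the median of all tested genes. Slc16a3 reached 5.10 in EpiSCs and Pdk1 -3.60 in 2CLCs, and the scale of the lactate panels is narrower, from Pdk1 at -1.004 to Pdk2 at 0.55 at 80 mM.

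The level of several members differed between the EpiSC libraries themselves. The mean of EpiSC replicates 2 and 3 over replicate 1 was 3.34 for Pdk1, 2.57 for Bsg, 2.32 for Pdk2 and for Pdk3, 2.24 for Ldha and 1.54 for Slc16a3, while it was 1.18 for Ldhb, 1.05 for Slc16a1, 1.02 for Mpc2 and 0.761 for Mpc1. The median of all tested genes was 1.0. The summed FPKM of 14 other targets of hypoxia-inducible factors, such as Bnip3 and Ddit4, moved with these members: it was 223, 1486 and 1514 in EpiSC replicates 1, 2 and 3, against 92.8 to 100 in the ESC libraries. Without replicate 1 the log2 fold changes in EpiSCs were 1.40 for Ldha, 0.61 for Ldhb, 5.30 for Slc16a3, 1.30 for Bsg, 0.95 for Pdk2, -0.83 for Mpc1 and -0.91 for Mpc2, all still called (adjusted p at most 0.00485), and Slc16a1 was again not called (-0.10, adjusted p = 0.207). The part of the other list's genes in these differences was not tested. Slc16a3 was high in all 3 EpiSC libraries, replicate 1 included.

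Other genes of the pathway were taken from lists, whose counts stand beside 56.4% of all tested genes lower and 20.1% higher in 2CLCs, 26.5% lower and 33.2% higher in EpiSCs, and 40.9% lower and 34.4% higher in MEFs. The medians of all genes beside theirs were -0.46, 0.01 and -0.07. Of 18 glycolysis genes tested, 1 was called higher and 10 lower in 2CLCs, 10 were called in EpiSCs, all of them higher, and 6 were higher and 2 lower in MEFs, with medians of -0.68, 1.05 and 0.10. The share of these genes called lower in 2CLCs was thus near that of all genes, but the wide EpiSC spread enters the error of this comparison too. EpiSC libraries of the glucose transporter gene Slc2a1 had an SD of 237 FPKM, beside 0.725 for 2CLCs and 0.471 for ESCs. Its log2 fold change in 2CLCs was -1.46 ± 0.50 (adjusted p = 0.0207). The count therefore cannot show that glycolysis genes fell no more often than other genes. In 2CLCs median-of-ratios scaling made the glycolysis count 3 higher and 2 lower, and 5 were lower without 2CLC replicate 2. In MEFs a fit of the compared groups alone called 6 lower, and 4 were lower without EpiSC replicate 1 or 3. Hk2, encoding a hexokinase, averaged 6.34 ± 1.18 FPKM in 2CLCs, 13.5 ± 0.927 in MEFs and 64.8 ± 0.584 in ESCs (SD, n = 3) and was called lower in both. Without EpiSC replicate 1, 16 of the 18 were higher in EpiSCs, with a median of 1.57. Pfkl, encoding a phosphofructokinase and called higher in EpiSCs, had 104, 203 and 205 FPKM in EpiSC replicates 1, 2 and 3, against 28.0, 30.1 and 29.9 FPKM in ESCs.

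Of 11 genes of the pyruvate dehydrogenase complex, its lipoylation and its phosphatases, 9 were called in 2CLCs, all of them lower, 2 were higher and 3 lower in EpiSCs, and 1 was higher and 10 were lower in MEFs, with medians of -0.54, -0.06 and -0.71. Without EpiSC replicate 1, as with quantile normalization, 5 were lower in EpiSCs. Median-of-ratios scaling turned the 2CLC count to 5 higher and 3 lower and left 1 higher and 8 lower in MEFs. The exception in MEFs was Pdp1, encoding a phosphatase that reverses the kinases, at 6.53 ± 0.112 FPKM in MEFs and 1.70 ± 0.0348 in ESCs (a log2 change of 1.48 ± 0.11, adjusted p = 1.38e-07). Pdha1, encoding the subunit that the kinases phosphorylate, averaged 62.1 ± 3.53 FPKM in EpiSCs and 107 ± 1.22 in ESCs (-0.78 ± 0.05, adjusted p = 1.34e-07). Of 12 tested other genes of lactate and pyruvate, 7 were called in 2CLCs, all of them lower, 5 were higher and 2 lower in EpiSCs and 4 higher and 6 lower in MEFs, with medians of -0.63, 0.37 and -0.40, and in 2CLCs median-of-ratios scaling gave 4 higher and 4 lower. The count in EpiSCs without replicate 1 was 6 higher and 3 lower.

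Of 13 tested other targets of hypoxia-inducible factors, 1 was called higher and 3 lower in 2CLCs, 12 were called in EpiSCs, all of them higher, and 9 were higher and 1 lower in MEFs, with medians of -0.61, 3.38 and 2.45. In EpiSCs without replicate 1, 12 were higher and 1 lower, with a median of 4.499. In 2CLCs median-of-ratios scaling gave 3 higher and 1 lower, and 8 were lower when EpiSC replicate 1 was left out. The gene called higher in 2CLCs with FPKM as deposited was P4ha2, at 160 ± 32.7 FPKM against 2.08 ± 0.370 in ESCs (SD, n = 3). Its log2 fold change was 5.69 ± 0.70 (SE, adjusted p = 1.58e-05). Ddit4, a stress gene that restrains mTORC1, had 50.8, 422 and 422 FPKM in EpiSCs and 7.92, 7.20 and 5.86 FPKM in ESCs. In MEFs, where Pdk1 was lower and Ldha not called, the list was mostly higher: the summed FPKM of the list of 14 was 349 to 352 in MEFs and 92.8 to 100 in ESCs.

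Genes whose log2(FPKM + 1) followed a member most closely over the 12 cell-state libraries were ranked by Pearson r among 10628 genes with at least 5 FPKM in a group (10629 for Pdk2), as a description with no test, since libraries of a state share that state. They were Tmem143 (0.9953) and Klf10 (0.9919) for Ldha, Casp9 (0.9951) and Atp6v0e2 (0.9945) for Ldhb, and Rcor2 (0.9985) and Naa10 (0.998) for Slc16a1. For Slc16a3 they were Spire1 (0.9941) and Bcor (0.9933), and for Bsg Fam162a (0.9947) and Cd68 (0.9774). The carrier genes had Hsd17b10 (0.9405) and Chm (0.9239) for Mpc1, and Hspa1b (0.9895) and Adgre5 (0.9849) for Mpc2. The kinase genes had Atxn7l2 (0.9929) and Plpbp (0.9897) for Pdk1, Sertad1 (0.9899) and Pde4dip (0.9891) for Pdk2, and Fam117b (0.9752) and Efna1 (0.9663) for Pdk3. Among the members themselves, r over these libraries was 0.956 between Ldha and Ldhb and between Ldhb and Pdk1, 0.944 between Ldha and Pdk1, 0.331 between Mpc1 and Mpc2, and -0.849 between Mpc2 and Pdk1.

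In ESCs given 80 mM sodium lactate all 10 genes were called, with Ldha, Ldhb, both transporter genes, Bsg, Mpc2 and Pdk2 higher and Mpc1, Pdk1 and Pdk3 lower. At 60 mM the test called 4 members higher and 2 lower, against 23.5% of all 13271 tested genes higher and 18.6% lower. At 80 mM the 7 higher and 3 lower stood against 30.0% of all tested genes higher and 23.1% lower. The members' medians were 0.16 and 0.29, beside 0.03 and 0.03 over all genes. For 80 mM, median-of-ratios scaling made the split of all called genes 3269 higher and 3913 lower, against 3977 higher and 3064 lower with FPKM as deposited, and the members kept their directions at this dose. Both doses share the 0 mM libraries. The groups analysed here include none with other sodium salts, so lactate and the sodium given with it cannot be told apart.

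**Figure D3:**
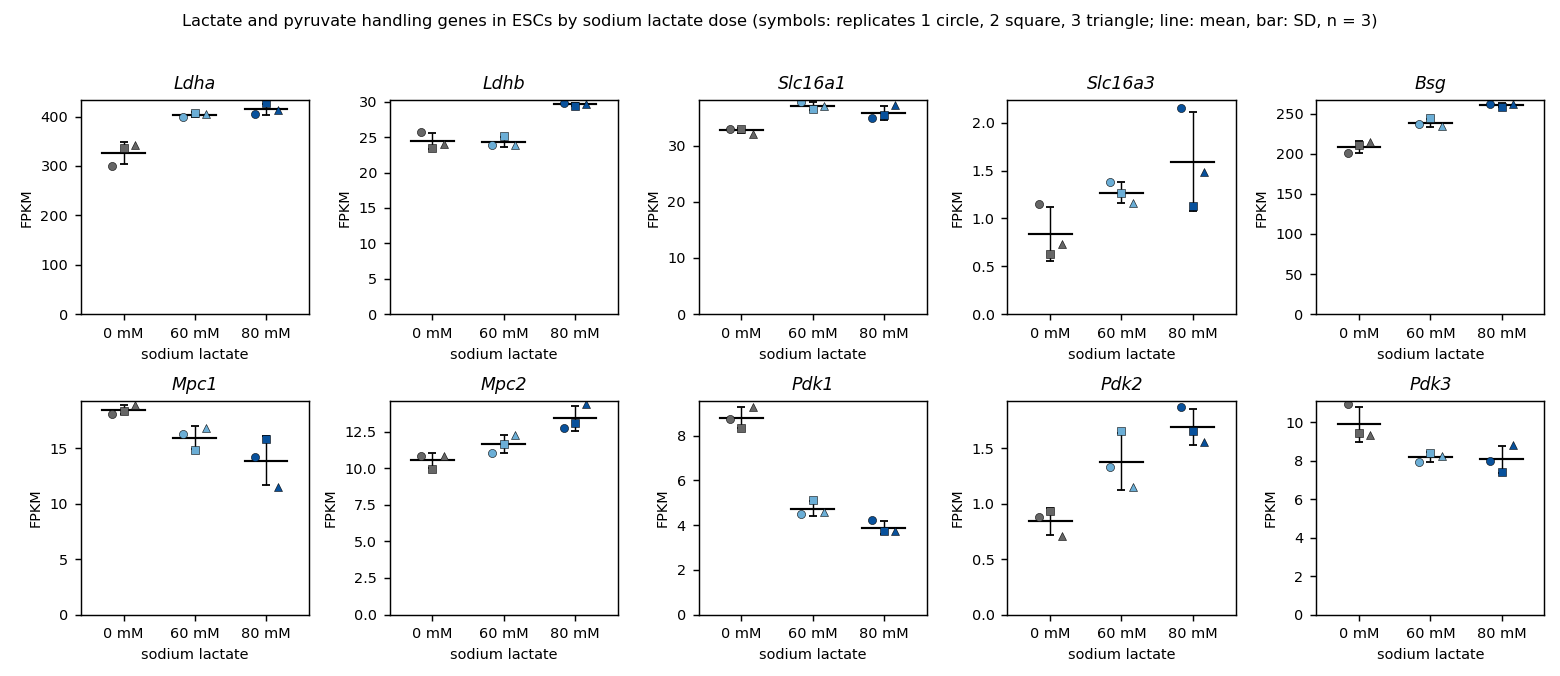
FPKM of each of the 10 genes (vertical axes, linear and from 0) in ESCs at 0 mM, 60 mM and 80 mM sodium lactate, with 3 libraries a dose, the mean as a line and the SD as a bar. Pdk1 lay at 8.36 to 9.28 FPKM without lactate, 4.51 to 5.13 at 60 mM and 3.71 to 4.22 at 80 mM, and Ldha at 300 to 342, 398 to 408 and 405 to 427 FPKM.

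Ldha had 300, 336 and 342 FPKM at 0 mM, 398, 408 and 406 FPKM at 60 mM, and 405, 427 and 414 FPKM at 80 mM. Both lactate groups lay above 0 mM and overlapped each other. The log2 fold change was 0.31 ± 0.04 at 60 mM (SE, adjusted p = 0.000413) and 0.35 ± 0.04 at 80 mM (adjusted p = 0.00011), which is 1.24-fold and 1.27-fold on the means. Ldhb had 25.8, 23.5 and 24.1 FPKM at 0 mM, 23.9, 25.1 and 23.9 FPKM at 60 mM, and 29.8, 29.4 and 29.7 FPKM at 80 mM. Only the 80 mM libraries lay above 0 mM. Ldhb was not called at 60 mM (-0.01 ± 0.04, adjusted p = 0.916) and rose at 80 mM, both against 0 mM (0.27 ± 0.04, adjusted p = 0.000437) and against 60 mM (0.28 ± 0.04, adjusted p = 0.00618). The Ldha share of both genes was 93.0% ± 0.779 at 0 mM, 94.3% ± 0.117 at 60 mM and 93.3% ± 0.214 at 80 mM.

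Of the transporter genes, Slc16a1 was called higher at both doses and Slc16a3 at 80 mM. Slc16a1 had 33.0, 33.0 and 32.1 FPKM at 0 mM, 37.8, 36.5 and 37.1 FPKM at 60 mM, and 34.9, 35.4 and 37.2 FPKM at 80 mM. Both lactate groups lay above 0 mM, with log2 fold changes of 0.18 ± 0.04 at 60 mM (adjusted p = 0.00301) and 0.13 ± 0.04 at 80 mM (adjusted p = 0.0128). The 80 mM call was lost with median-of-ratios scaling (0.06, adjusted p = 0.192). Slc16a3 had 1.15, 0.627 and 0.730 FPKM at 0 mM, 1.38, 1.27 and 1.16 FPKM at 60 mM, and 2.15, 1.13 and 1.49 FPKM at 80 mM. At 0 mM only replicate 1 reached 1 FPKM, so Slc16a3 passed the filter through the lactate groups. It was not called at 60 mM (0.31 ± 0.15, adjusted p = 0.13) and called higher at 80 mM (0.49 ± 0.15, adjusted p = 0.0223), where the groups overlapped. The means at 60 mM and 80 mM were 1.52-fold and 1.90-fold that at 0 mM, which the log2(FPKM + 1) scale understates at this level.

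That call for Slc16a3 was lost with no filter (adjusted p = 0.0757), with quantile normalization (0.28, adjusted p = 0.144), and without 0 mM replicate 2 (0.41, adjusted p = 0.0791), 0 mM replicate 3 (0.45, adjusted p = 0.066) or 80 mM replicate 1 (0.34, adjusted p = 0.084). Bsg had 201, 211 and 214 FPKM at 0 mM, 237, 245 and 235 FPKM at 60 mM, and 262, 258 and 263 FPKM at 80 mM. The doses did not overlap. Bsg rose by a log2 fold change of 0.20 ± 0.03 at 60 mM (adjusted p = 0.000515) and 0.32 ± 0.03 at 80 mM (adjusted p = 1.08e-05). Emb went the other way and averaged 7.03 ± 0.629 FPKM at 60 mM and 7.39 ± 0.406 at 80 mM, against 8.68 ± 0.229 at 0 mM (SD, n = 3 each), called lower at both doses.

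Mpc1 had 18.1, 18.3 and 18.9 FPKM at 0 mM, 16.2, 14.8 and 16.8 FPKM at 60 mM, and 14.2, 15.9 and 11.5 FPKM at 80 mM. Both lactate groups lay below 0 mM, and the difference was called at 80 mM (-0.40 ± 0.10, adjusted p = 0.0054) and not at 60 mM (-0.20 ± 0.10, adjusted p = 0.118). At 60 mM it was called in a fit of the compared groups alone (adjusted p = 0.0214) and without 80 mM replicate 3 (adjusted p = 0.0244). Mpc2 had 10.8, 9.96 and 10.8 FPKM at 0 mM, 11.0, 11.6 and 12.3 FPKM at 60 mM, and 12.8, 13.1 and 14.4 FPKM at 80 mM. The doses did not overlap, and Mpc2 was called higher at 80 mM (0.32 ± 0.06, adjusted p = 0.00154) and not at 60 mM (0.13 ± 0.06, adjusted p = 0.109). The carrier genes thus changed in opposite directions at 80 mM. Mpc1 held 63.7% ± 1.08 of their summed FPKM at 0 mM, 57.8% ± 1.78 at 60 mM and 50.6% ± 5.52 at 80 mM, with no overlap of either lactate group with 0 mM (exact two-sided permutation p = 0.1 each, 0.15 after adjustment).

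Pdk1 fell at both doses. It had 8.76, 8.36 and 9.28 FPKM at 0 mM, 4.51, 5.13 and 4.57 FPKM at 60 mM, and 4.22, 3.71 and 3.73 FPKM at 80 mM. The doses did not overlap, and the mean at 0 mM was 1.86-fold that at 60 mM and 2.26-fold that at 80 mM. Pdk1 fell by 0.77 ± 0.07 on the log2 scale at 60 mM (adjusted p = 2.88e-05) and by 1.004 ± 0.07 at 80 mM (adjusted p = 2.51e-06), at the 1.43rd and 1.05th percentile of all tested genes. The step from 60 mM to 80 mM was not called (-0.23 ± 0.07, adjusted p = 0.0914).

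Pdk2 had 0.877, 0.937 and 0.704 FPKM at 0 mM, 1.33, 1.65 and 1.15 FPKM at 60 mM, and 1.87, 1.65 and 1.55 FPKM at 80 mM. Both lactate groups lay above 0 mM at this low level, and the mean at 80 mM was 2.02-fold that at 0 mM. No 0 mM library reached 1 FPKM, so Pdk2 passed the filter only through the lactate groups, where it was higher. Its calls are to be read with that limit. Pdk2 rose at 80 mM (0.55 ± 0.11, adjusted p = 0.00165). It was called higher at 60 mM (0.37 ± 0.11, adjusted p = 0.02), but not with no filter (adjusted p = 0.0593), with quantile normalization (0.22, adjusted p = 0.14), without 0 mM replicate 3 (adjusted p = 0.069) or without 60 mM replicate 2 (adjusted p = 0.0739).

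Pdk3 had 10.9, 9.41 and 9.30 FPKM at 0 mM, 7.92, 8.41 and 8.24 FPKM at 60 mM, and 7.98, 7.39 and 8.81 FPKM at 80 mM. Both lactate groups lay below 0 mM and overlapped each other. Pdk3 was called lower at 60 mM (-0.24 ± 0.08, adjusted p = 0.0284) and at 80 mM (-0.26 ± 0.08, adjusted p = 0.0145). The 60 mM call was lost with no filter (adjusted p = 0.0725) and without 0 mM replicate 1 (-0.17, adjusted p = 0.1) or any single 60 mM library (adjusted p of 0.0502 to 0.0813). The 80 mM call was lost without 0 mM replicate 1 (-0.20, adjusted p = 0.0551) or 80 mM replicate 2 (-0.21, adjusted p = 0.0566).

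Among the 3 kinase genes, Pdk1 held 45.1% ± 2.79 of the summed FPKM at 0 mM, 33.1% ± 0.562 at 60 mM and 28.5% ± 1.83 at 80 mM, and Pdk2 4.31% ± 0.679, 9.59% ± 1.33 and 12.4% ± 1.22 at these doses (SD, n = 3). Neither share overlapped 0 mM at either dose (exact two-sided permutation p = 0.1 each, 0.15 after adjustment). The Pdk2 share was computed after its values were seen.

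**Figure D4:**
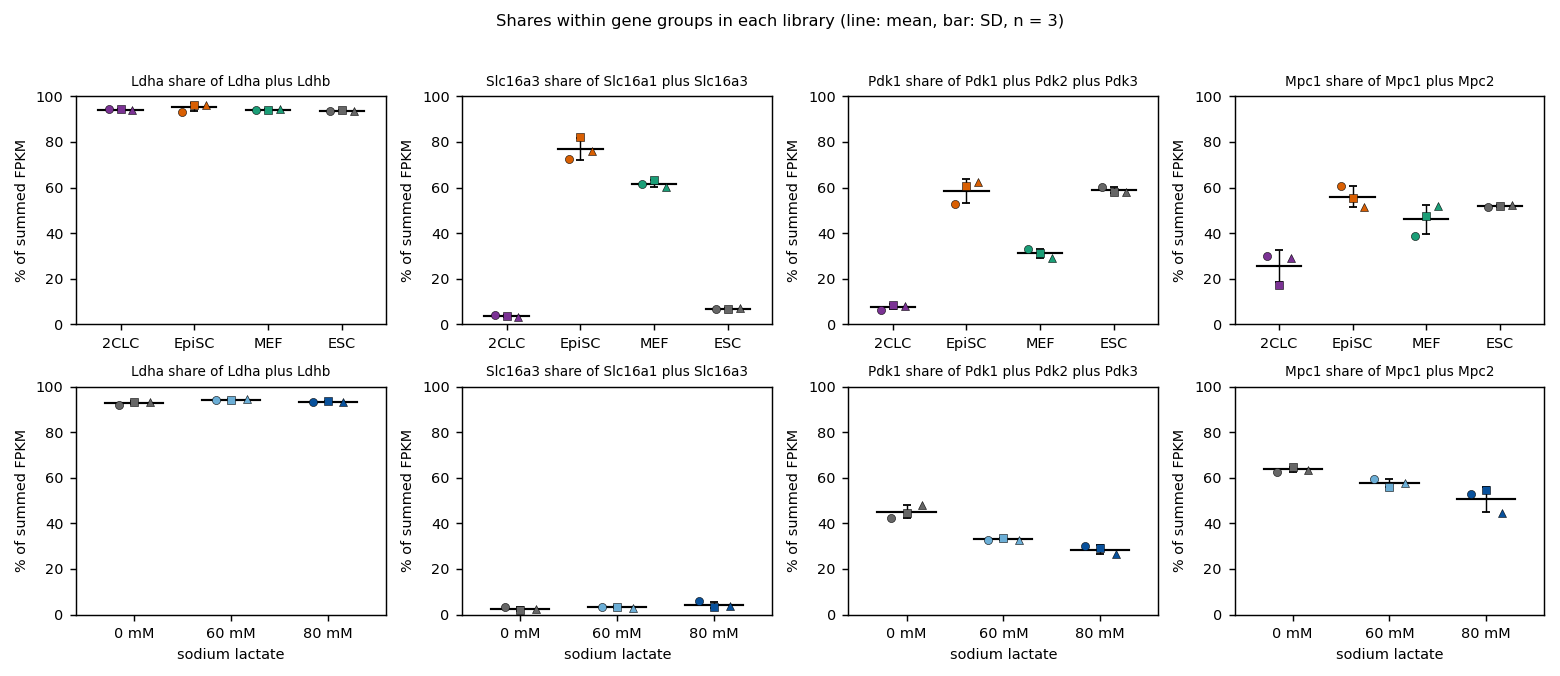
Share of the summed FPKM (vertical axes, 0 to 100%) of Ldha, Slc16a3, Pdk1 and Mpc1 within their gene groups, by library, for cell states (upper row) and sodium lactate doses (lower row), with the mean as a line and the SD as a bar. Slc16a3 held 76.8% in EpiSCs and 6.69% in ESCs, Pdk1 7.59% in 2CLCs and 58.7% in ESCs, and the Pdk1 share was 45.1%, 33.1% and 28.5% over the doses.

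From 60 mM to 80 mM the test called 2 members, Ldhb and Bsg, both higher, against 4.06% of all tested genes higher and 2.11% lower. With median-of-ratios scaling the split of all called genes was 449 higher and 465 lower, against 539 and 280 with FPKM as deposited. For Bsg the step of 0.13 ± 0.03 (adjusted p = 0.032) was lost with median-of-ratios scaling (adjusted p = 0.0834), with no filter (adjusted p = 0.0847) and without any 1 of 5 libraries of these doses (adjusted p of 0.0738 to 0.104), all but 60 mM replicate 2.

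Of 11 genes of the pyruvate dehydrogenase complex and its phosphatases, 1 was higher and 4 were lower at 60 mM and again at 80 mM, with medians of -0.10 and -0.04 beside 0.03 and 0.03 over all genes. Of all tested genes, 23.5% were higher and 18.6% lower at 60 mM, and 30.0% higher and 23.1% lower at 80 mM, the background for the lists below as well. At 60 mM the lower count was 1 without 0 mM replicate 1 and 2 without any single 60 mM library. The higher gene was Pdp2, encoding a phosphatase that reactivates the complex, which averaged 17.4 ± 0.592 FPKM at 0 mM, 28.7 ± 0.861 at 60 mM and 32.5 ± 2.41 at 80 mM (SD, n = 3 each). Its log2 fold change was 0.69 ± 0.05 at 60 mM (adjusted p = 1.1e-05) and 0.86 ± 0.05 at 80 mM (adjusted p = 1.2e-06). Pdha1, encoding the subunit that kinases and phosphatases act on, averaged 108 ± 2.1 FPKM at 0 mM, 87.6 ± 1.41 at 60 mM and 77.2 ± 0.718 at 80 mM, called lower at both doses. At the transcript level the kinase gene Pdk1, the phosphatase gene Pdp2 and their target Pdha1 therefore changed at the same doses, Pdp2 upward and the others downward. Other kinase and phosphatase genes went both ways. Pdk3 was called lower and Pdk2 higher at both doses, and Pdpr, of the phosphatase list, was called lower at both. Over 0 mM, 60 mM and 80 mM, Pdp1 averaged 1.73, 1.33 and 1.21 FPKM and Pdk4 0.469, 0.879 and 0.670 FPKM.

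Of 18 glycolysis genes, 4 were higher and 9 lower at 60 mM, and 5 higher and 9 lower at 80 mM, with medians of -0.08 and -0.07. The genes that rose included the glucose transporter genes Slc2a1, at 59.2 ± 1.83, 86.9 ± 1.0 and 107 ± 0.231 FPKM over the doses, and Slc2a3, at 188 ± 7.38, 315 ± 8.62 and 372 ± 6.53 FPKM (SD, n = 3 each). Hk1, encoding a hexokinase, averaged 10.8 ± 0.214, 16.2 ± 0.282 and 19.2 ± 0.889 FPKM and was called higher at both doses. These 3 had the largest changes among the called genes of the list, although more of its genes were lower than higher. Among those with falling means were Hk2, at 33.6 ± 0.335, 24.2 ± 0.128 and 23.7 ± 0.871 FPKM, and Gapdh, at 1714 ± 44.8, 1458 ± 29.7 and 1371 ± 21.9 FPKM. Of 11 tested other genes of lactate and pyruvate, 5 were higher and 2 lower at 60 mM and 6 higher and 4 lower at 80 mM, with medians of -0.05 and 0.17. At 60 mM median-of-ratios scaling made 4 lower, and at 80 mM the lower count was 2 without 0 mM replicate 2 and 1 without 0 mM replicate 3, 80 mM replicate 2 or 80 mM replicate 3. Me1, encoding the cytosolic malic enzyme, which makes pyruvate from malate, averaged 15.6 ± 0.29 FPKM at 0 mM, 22.4 ± 0.327 at 60 mM and 26.8 ± 0.393 at 80 mM.

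Of 12 tested other targets of hypoxia-inducible factors, 5 were higher and 3 lower at 60 mM and 6 higher and 3 lower at 80 mM, with medians of 0.21 and 0.31. P4ha2 had the largest change among the called genes of this list, at 2.98 ± 0.598, 8.53 ± 0.781 and 16.5 ± 0.353 FPKM over the doses, and was called higher at both. Ddit4 averaged 6.31 ± 0.426, 12.3 ± 0.392 and 17.3 ± 0.301 FPKM over the doses, called higher at both, and Ndrg1 averaged 6.97 ± 1.10, 3.78 ± 0.397 and 3.93 ± 0.0738 FPKM, called lower at both. Marker sums moved with lactate too. The 7 2CLC markers summed to 26.9 to 28.2 FPKM at 0 mM, 59.1 to 65.0 at 60 mM and 97.5 to 102 at 80 mM, with 6 of 6 tested markers called higher at each dose. Over the same doses the naive ESC markers summed to 1752 to 1800, 1997 to 2066 and 2082 to 2154 FPKM, the EpiSC markers to 54.7 to 60.6, 80.3 to 88.1 and 86.6 to 91.2 FPKM, and the MEF markers to at most 1.15, 4.47 and 5.70 FPKM. At each dose 5 of 7 naive ESC markers were called higher and 2 lower. Of 4 tested EpiSC markers 2 were higher and 1 lower at each dose. The naive sum rests mostly on Dppa5a (means of 823 FPKM at 0 mM and 1087 at 80 mM). The EpiSC sum rests mostly on Dnmt3b (51.7 and 75.3 FPKM). The part of the markers in the members' changes was not tested. Both Pdk1 and Mpc1 were lower, and Mpc2 was higher, in 2CLCs than in ESCs and at 80 mM than at 0 mM with FPKM as deposited, although for Mpc1 in 2CLCs the direction turned with median-of-ratios scaling. Ldha, Ldhb, Slc16a1, Slc16a3 and Pdk2 were called lower in 2CLCs and higher at 80 mM, although for Slc16a1 the 80 mM call was lost with median-of-ratios scaling. For Slc16a3, whose libraries overlapped at 0 mM and 80 mM, that call was lost with no filter and with quantile normalization. It was also lost without 0 mM replicate 2, 0 mM replicate 3 or 80 mM replicate 1. Bsg and Pdk3 were not called in 2CLCs.

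The untreated ESCs of both tables can only be set side by side, since the tables differ in their sets of genes (21161 and 55291 names) and the difference was not tested. Some other genes differed far more between the tables. Gapdh averaged 49.3 ± 3.74 FPKM in the ESCs of the cell-state table and 1714 ± 44.8 in 0 mM ESCs, and Aldoa 4.48 ± 0.992 and 345 ± 20.2 FPKM (SD, n = 3). How each table assigned fragments to such genes is unknown, which also limits the ratios of the members. The mean FPKM in 0 mM ESCs over that in the ESCs of the cell-state table was 0.216 for Slc16a3, 0.347 for Pdk1, 0.531 for Ldha, 0.593 for Pdk3, 0.595 for Ldhb, 0.607 for Slc16a1 and 0.752 for Pdk2. It was 0.965 for Bsg, 1.05 for Mpc2 and 1.71 for Mpc1. For Pdk1 these are means of 8.80 ± 0.461 FPKM in 0 mM ESCs and 25.3 ± 0.971 FPKM in the ESCs of the cell-state table, a wider gap than that between 0 mM and 80 mM. The members together held 0.10 to 0.109% of the library FPKM in 2CLCs, 0.303, 0.602 and 0.602% in the EpiSC libraries, 0.285 to 0.294% in MEFs and 0.237 to 0.240% in ESCs, and 0.151 to 0.164%, 0.182 to 0.187% and 0.195 to 0.197% at 0 mM, 60 mM and 80 mM.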

How the data were processed

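RNA extracted with Trizol was made into libraries with a TruSeq kit and sequenced on a MiSeq, per the labels' protocols, and the submitters' processing notes name HISAT2 2.0.4, StringTie 2.1.4 and mm10. The authors deposited 2 tables of FPKM values per gene; their gene annotation, and whether counting used the strand, are not given in the sources used here. FPKM is relative to each library's own total and keeps no read number, and the values showed no steps of whole reads (at most 2.39% of single-exon genes shared the commonest value of FPKM times length), so the depth is unknown and no interval from counts is given.

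Groups came from the sample titles and labels. From the deposited FPKM, log2(FPKM + 1) was tested with limma 3.58.1 (R 4.3.3, trended prior variance) in 1 fit per table over all its groups, for genes that reached 1 FPKM in 3 or more libraries, 16358 over the cell states and 13271 over the doses. P-values were adjusted by Benjamini-Hochberg within each comparison at a threshold of 0.05, and fold changes on the log2(FPKM + 1) scale understate the change of low genes. Shares of summed FPKM were compared by exact two-sided permutation tests (scipy 1.17.1). The fit was tested on simulated data. The members and lists were chosen with earlier results of these data known. All 10 members are named with values, and of each other list up to 3 genes a comparison, those with the largest fold change among called genes with a mean of at least 5 FPKM in the higher group. Some further list genes are given to show the other direction or a limit. The genes most like a member were the 2 with the highest Pearson r over 12 libraries, predicted genes left out.

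Alternatives were pseudocounts of 0.1 and 5, no or a stricter filter (5 FPKM), scaling by median of ratios, quantile normalization, fits of the compared groups alone, a replicate block, leaving out each library, and Pdk4 in the kinase share. The replicate numbers were not taken to pair the samples. Of the gene names, 20640 of 21161 and 53292 of 55291 were in GENCODE M21, which gave coordinates and transcript sequences (GRCm38, the build of mm10).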

Additional observations from a re-analysis of the deposited data

How the results depend on the processing

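Of 1101 values of the members under alternatives, 1034 kept their direction and their side of the threshold. Many of these could not change direction. The filters, the fit of the compared groups alone, the replicate block and leaving out a library of another group leave the fold change as it was. In those settings only the adjusted p can move, so the count overstates how far directions were tried. With median-of-ratios scaling and quantile normalization the sign turned for Pdk3 in 2CLCs (0.49 and 0.18), Ldha in MEFs (0.15 and 0.28) and Ldhb in MEFs (0.0437 and 0.0464), with quantile normalization for Bsg in 2CLCs (-0.28) and Ldhb at 60 mM (0.000805), and with median-of-ratios scaling for Mpc1 in 2CLCs (0.0581) and Pdk3 in MEFs (0.0744). The cause was not tested. Leaving out 1 library gave -0.0334 to 0.0299 for Ldhb at 60 mM, -0.0822 to 0.0303 for Pdk3 at 80 mM against 60 mM, -0.112 to 0.571 percentage points for the Ldha share at 80 mM, and -2.11 to 2.80 points for the Pdk1 share in EpiSCs. With Pdk4 in the denominator, the Pdk1 share differed by 0.14 points in EpiSCs and by -33.5 points in MEFs. Between 80 mM and 60 mM, 819 genes were called, 456 with no filter and 360 to 797 without 1 library. Of the members 2 were called there, 1 with no filter, 1 with median-of-ratios scaling, 1 with the replicate block and 1 to 2 without 1 library.

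Same-numbered libraries did not deviate together (r of their deviations -0.0302 to 0.0717), and only between 80 mM and 60 mM did all 3 libraries correlate best with their own number, at r of 0.0352, 0.00846 and 0.0276. With the replicate block 12483 genes were called in 2CLCs, 9573 in EpiSCs, 12258 in MEFs, 5417 at 60 mM and 6953 at 80 mM, against 12516, 9765, 12319, 5591 and 7041 without it, and 623 against 819 between 80 mM and 60 mM. The block called Pdk3 higher in EpiSCs (adjusted p = 0.0416) and not Bsg at 80 mM against 60 mM (adjusted p = 0.0531), and changed no other call of a member. Read depth is unknown, and Slc16a3, Pdk1 and Pdk2 lay near 1 FPKM in some groups, where the added 1 FPKM weighs most.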

Other observations

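A list of 14 tested regulators of these genes (HIF, MYC and related factors) had 1 member called higher and 12 lower in 2CLCs, 4 higher and 4 lower in EpiSCs and 4 higher and 7 lower in MEFs, with medians of -1.18, 0.02 and -0.21 beside -0.46, 0.01 and -0.07 over all tested genes. Of all tested genes 20.1% were higher and 56.4% lower in 2CLCs, 33.2% and 26.5% in EpiSCs, and 34.4% and 40.9% in MEFs. The EpiSC and MEF counts are near these shares. Without EpiSC replicate 1 the EpiSC count was 7 higher and 6 lower, against 35.6% of all tested genes higher and 31.3% lower. With median-of-ratios scaling the 2CLC count was 1 higher and 9 lower, against 6018 higher and 5300 lower of all 16358 tested genes. Myc, a transcription factor gene of growing cells, averaged 1.61 ± 0.335 FPKM in 2CLCs, against 42.0 ± 1.77 in ESCs (SD, n = 3), a log2 fold change of -4.05 ± 0.22 (adjusted p = 1.71e-08). Epas1, which encodes HIF-2 alpha, averaged 0.683 ± 0.135 FPKM in EpiSCs and 12.3 ± 0.488 in ESCs and was called lower, while Egln3, which encodes a prolyl hydroxylase that marks HIF for breakdown, had 15.0, 136 and 137 FPKM in EpiSC replicates 1, 2 and 3, against a mean of 1.87 ± 0.235 FPKM in ESCs, and was called higher. Egln3 and Egln1 also stand in the list of other targets of hypoxia-inducible factors, so these lists overlap and their counts are not separate.

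Over the lactate doses Myc averaged 29.9 ± 1.87 FPKM at 0 mM, 20.8 ± 1.83 at 60 mM and 14.5 ± 0.667 at 80 mM and was called lower at both doses. Vhl, whose product tags HIF for breakdown, averaged 7.74 ± 0.582, 11.6 ± 0.679 and 12.8 ± 0.62 FPKM and was called higher at both. Of 6 tested genes of osmotic stress, 3 were higher and 1 lower at 60 mM and again at 80 mM. Of all tested genes 23.5% were higher and 18.6% lower at 60 mM, and 30.0% higher and 23.1% lower at 80 mM. The lower gene was Akr1b3, at 249 ± 6.63 FPKM at 0 mM, 212 ± 6.11 at 60 mM and 208 ± 2.35 at 80 mM (SD, n = 3 each). Sgk1, a kinase gene induced by salt and hormones, averaged 102 ± 4.57 FPKM at 0 mM, 181 ± 4.61 at 60 mM and 213 ± 6.72 at 80 mM.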
